A study of Mus musculus with 25 samples.

Results

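The 36 genes described here encode proteins that copy DNA and divide the cell. They were taken from a fixed list of symbols and matched by Ensembl identifier, and all 36 were listed in both expression tables of the study, among 45706 genes in the hypothalamic table and 44674 genes in the cell-culture table. Of the 36, 18 act mainly in the S phase of the cell cycle, when DNA is copied, and 18 act mainly in mitosis.

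The hypothalamic libraries came from bacTRAP, in which ribosomes carrying a GFP-tagged protein L10a are precipitated with antibodies against GFP and the attached RNA is sequenced. All mice of both diets carried the genotype given as Slco1c1Cre+/-;ROSA26lSlL10aGFP+/-, that is, a Cre that tamoxifen switches on, driven by the promoter of Slco1c1, together with an L10aGFP that is made after Cre has acted. They were 12 weeks old, started their diet 3 weeks after tamoxifen and were fed a high-fat diet (HFD) or a control diet (CD) for 3 days. Each of the 4 groups (HFD IP, CD IP, HFD INPUT and CD INPUT) had 4 libraries, each from a pool of 4 mice, 2 female and 2 male. INPUT is the whole lysate and IP the precipitated RNA. The 9 culture libraries came from cEND cells, a mouse brain endothelial line, kept with the vehicle DMSO or with 0.5 or 10 µM WZB117, which blocks glucose uptake through Glut1. Each treatment had 1 library at each of passages 12, 14 and 18, so its 3 libraries differ in passage but not in animal of origin. For the doses, p-values of a fit without a passage term measure the spread between these passages. With passage as a block they measure how far the treatment difference varied between passages. The length of the WZB117 treatment was not given in the sources used here.

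A cell licenses its replication origins by loading the ring-shaped MCM helicase with the help of Cdc6 and Cdt1. Cyclin E and E2F transcription factors then start S phase, in which DNA polymerases slide on the Pcna clamp and ribonucleotide reductase supplies the building blocks. Entry into mitosis depends on Cdk1 bound to B-type cyclins, the Aurora and Polo kinases shape the spindle, the kinesins move chromosomes, and the Bub proteins hold back Cdc20 until every chromosome is attached. Most neurons of the adult brain no longer divide, and the dividing cells of the adult hypothalamus are mainly glial precursors, some tanycytes and some cells of blood vessels.

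Total counts, in units of 1000000, ran from 27.9 to 42.8 per hypothalamic library and from 27.3 to 41.3 per cEND library. The labels call every library endothelial. In cEND cells Pecam1, an endothelial adhesion molecule, averaged 1417 ± 177 CPM at 10 µM and 1271 ± 214 CPM with DMSO (CPM, counts scaled to a TMM-adjusted library total of 1000000, SD, n = 3 each), whereas Slco1c1 had no count in any cEND library. In the hypothalamus the summed level of 14 endothelial markers was 251 to 319 CPM in HFD IP, 273 to 357 CPM in CD IP, 51.9 to 69.4 CPM in HFD INPUT and 53.9 to 60.9 CPM in CD INPUT. The summed level of 10 astrocyte markers was 39596 to 43217 CPM in HFD IP, 42162 to 50142 CPM in CD IP, 4953 to 5614 CPM in HFD INPUT and 4907 to 6697 CPM in CD INPUT. Both lists were therefore higher in every IP library than in every INPUT library. The libraries hold bulk RNA, in which fewer dividing cells and less RNA per dividing cell cannot be told apart.

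Both groups of genes were abundant in cEND cells and scarce in the hypothalamus. Per kilobase of exon, the median S-phase gene had 18.7 CPM in the 9 cEND libraries, 1.03 CPM in the 8 IP libraries and 1.08 CPM in the 8 INPUT libraries. The median mitotic gene had 23.2 CPM per kilobase in cEND cells, 0.138 CPM per kilobase in IP and 0.288 CPM per kilobase in INPUT. These levels come from separate tables and were not tested against each other. Pcna, the sliding clamp, had the highest level of the 36 genes in each set of libraries, with 84.9 ± 10.6 CPM per kilobase in cEND cells (SD, n = 9), 30.4 CPM per kilobase in IP and 17.9 CPM per kilobase in INPUT. The lowest over the 9 cEND libraries was Cenpf, a kinetochore protein, with 5.59 ± 1.87 CPM per kilobase (SD, n = 9), which had 6.60 CPM per kilobase with DMSO, where E2f1 had 6.44, and 3.62 CPM per kilobase at 10 µM. In the hypothalamus Bub1, a spindle checkpoint kinase, and Cdc6 were lowest over the IP libraries, with 0.0288 and 0.0303 CPM per kilobase. Cenpf with 0.0540 and Cdk1 with 0.0628 followed. Over the INPUT libraries Cdk1 and Cdc6 were lowest with 0.108 each, followed by Bub1 with 0.120. These differences lay within the spread between libraries, and the order differed between the diets. The depth behind these values differed accordingly. Mitotic genes had 919 to 19999 counts per library in cEND cells, 1 to 221 counts in IP and 5 to 429 counts in INPUT, and S-phase genes had 491 to 9421 counts in cEND cells, 3 to 3500 counts in IP and 8 to 1781 counts in INPUT.

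WZB117 at 10 µM was set against DMSO to see how cells respond to blocked glucose uptake. The mitotic genes were lower at 10 µM at each of the 3 passages, whereas the S-phase genes were lower as a group at passage 18 and divided between higher and lower at passages 12 and 14. In the fit without a passage term, none of the 36 genes passed an adjusted p of 0.05 in edgeR's quasi-likelihood test, where 1.27 percent of the 15466 genes tested passed in either direction, 0.853 percent upward and 0.42 percent downward. Of the members, 12 mitotic and 0 S-phase genes had an unadjusted p under 0.05 in that fit, as had 1728 of the 15466 genes. DESeq2 called 6 mitotic genes, all lower (Bub1b, Cdc20, Cenpe, Cenpf, Kif11 and Plk1), where it called 189 of 12893 genes lower and 315 higher. The smallest p-values among mitotic genes belonged to Cenpe, a kinetochore motor, at −0.73 ± 0.16 (log2 fold change ± SE, adjusted p = 0.0682), Bub1b at −0.81 ± 0.17 (adjusted p = 0.0682) and Plk1 at −0.91 ± 0.23 (adjusted p = 0.132), all from edgeR. Among S-phase genes they belonged to Cdt1 at −0.34 ± 0.16 (adjusted p = 0.51), Mcm2 at −0.27 ± 0.16 (adjusted p = 0.623) and Mcm4 at −0.17 ± 0.10 (adjusted p = 0.647), again from edgeR.

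Libraries of the same passage deviated together, with correlations of 0.66 to 0.87 between same-passage libraries and −0.55 to −0.14 between the others. With the passage as a replicate block, 17 of 18 mitotic genes and 5 of 18 S-phase genes fell at 10 µM and none rose. In that fit 18.5 percent of the 15466 genes were called in either direction, 9.23 percent upward and 9.29 percent downward. The median log2 fold change was −0.54 over the mitotic genes and −0.17 over the S-phase genes in the fit without passage, against −0.01 over all genes tested. The genes named from the blocked fit were chosen after their values were seen.

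Plk1, the Polo-like kinase that drives entry into mitosis (ENSMUSG00000030867, chr7:122159439-122169873 in GRCm38), had 29.0, 36.2 and 24.7 CPM at passages 12, 14 and 18 with 10 µM, against 55.9, 68.3 and 44.7 CPM with DMSO. It fell by 0.91 ± 0.08 on the log2 scale (SE, adjusted p = 1.68e-08, edgeR with the passage block). Cenpf (ENSMUSG00000026605, chr1:189640606-189688086) had 54.9, 69.1 and 43.8 CPM at 10 µM, against 111, 119 and 75.1 CPM with DMSO, and fell by 0.86 ± 0.06 (adjusted p = 3.08e-10, edgeR). For Plk1 and for Cenpf every library at 10 µM was below every DMSO library. The share of all genes without overlap was not counted in the cEND comparisons. Bub1b, which encodes the checkpoint protein BubR1 (ENSMUSG00000040084, chr2:118598211-118641591), had 69.0, 72.9 and 55.2 CPM at 10 µM, against 131, 118 and 96.3 CPM with DMSO, with no overlap between the groups.

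The motor Cenpe fell by 0.73, the anaphase activator Cdc20 by 0.68 and the kinesin Kif20a, which works in cytokinesis, by 0.64 on the log2 scale, with adjusted p-values of 2.58e-09, 1.16e-08 and 1.68e-08 in the blocked edgeR fit. The other 11 mitotic genes that fell lay between −0.62 for Ccnb1, the cyclin B1 gene, and −0.27 for Aurkb, the Aurora kinase of the chromosomal passenger complex. The proliferation marker Mki67 was among them at −0.45 ± 0.06 (adjusted p = 3.8e-06, edgeR). Bub1 alone did not pass, at −0.15 ± 0.07 (adjusted p = 0.118, edgeR), with 79.9, 82.0 and 52.7 CPM at 10 µM, against 86.7, 83.5 and 65.7 CPM with DMSO. Bub1 therefore stood apart from its relative Bub1b in these libraries, although the difference between both genes was not tested.

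The 5 S-phase genes that fell in the blocked fit were Cdt1, the licensing factor, by 0.36, the MCM helicase subunits Mcm6 by 0.31 and Mcm2 by 0.29, Tyms, the thymidylate synthase, by 0.29 and Rrm1, the large subunit of ribonucleotide reductase, by 0.22 on the log2 scale. Their adjusted p-values in edgeR ran from 0.00198 for Tyms to 0.0338 for Rrm1. Mcm2 had 164, 165 and 109 CPM at passages 12, 14 and 18 with 10 µM, against 180, 185 and 164 CPM with DMSO. Cdt1 had 58.4, 54.0 and 38.2 CPM at 10 µM, against 58.8, 69.7 and 62.1 CPM with DMSO. Tyms had 84.3, 83.2 and 58.0 CPM at 10 µM, against 99.8, 93.3 and 79.3 CPM with DMSO. In all 3 genes the library at 10 µM and passage 18 lay lowest of the 6. Without passage 18 the blocked fit called 16 mitotic genes and 0 S-phase genes as lower, and Ccne2 and Cdc6 as higher (0.64 with adjusted p = 0.000102 and 0.34 with adjusted p = 0.0112, edgeR), where 871 of 15450 genes were called lower and 1127 higher.

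**Figure D1:**
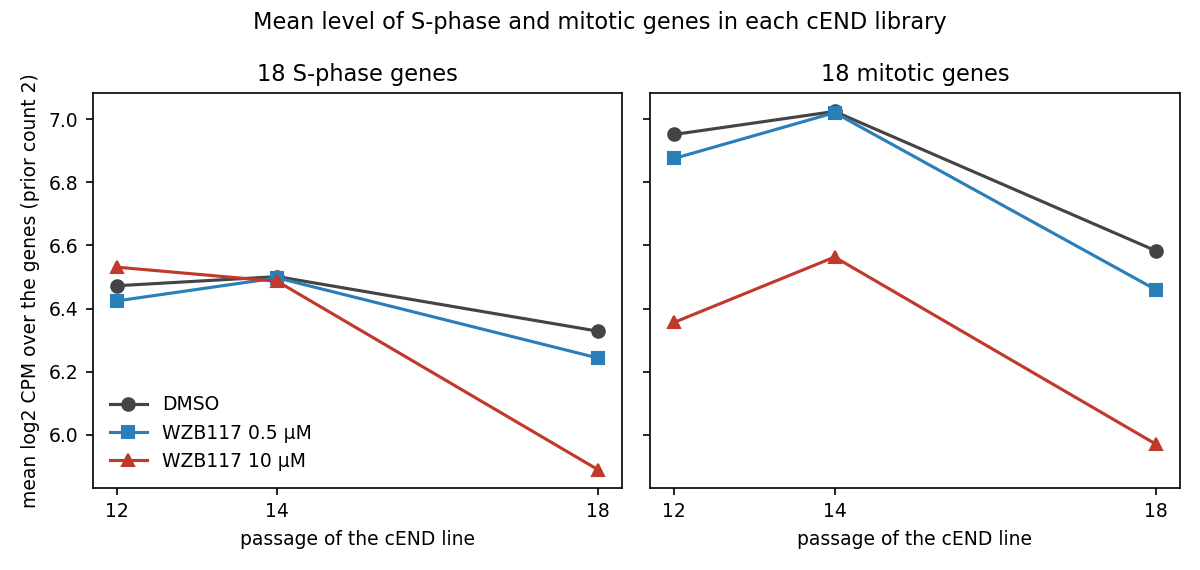
Mean log2 CPM (prior count 2) of the 18 S-phase genes (left) and the 18 mitotic genes (right) in each of the 9 cEND libraries against passage, with 1 line for each treatment. The mitotic mean at 10 µM lay below DMSO at every passage, while the S-phase mean at 10 µM was 6.53 at passage 12 and 5.89 at passage 18.

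Within passages, all 18 mitotic genes were lower at 10 µM than with DMSO at all 3 passages, which held for 24.6 percent of the 15466 genes. Their median difference was −0.57 at passage 12, −0.42 at passage 14 and −0.64 at passage 18 (log2 CPM). Of the S-phase genes, 10 of 18 were lower at passage 12, 11 at passage 14 and 18 at passage 18, with medians of −0.01, −0.08 and −0.45. At passage 18 the 10 µM library was thus below DMSO for each of the 36 genes.

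The size of the difference between passages was read from a term for the 10 µM effect at passage 18 beyond that at passages 12 and 14, chosen after the values above had been seen, with the DMSO and 0.5 µM libraries of a passage both used as controls. The term rests on 1 library, 10 µM at passage 18, which is assumed to vary like the others, so that passage and that library cannot be told apart and the term is given as a description. In edgeR 4 of 15466 genes (0.0259 percent) lay past an adjusted p of 0.05, all negative, among them Ccne2 and Cdc6. Ccne2, a cyclin E gene (ENSMUSG00000028212, chr4:11191351-11204779), had 35.3, 44.9 and 23.3 CPM at passages 12, 14 and 18 with 10 µM, against 22.4, 29.2 and 29.7 CPM with DMSO, so it was above DMSO at the earlier passages and below it at passage 18. The term was −1.03 ± 0.15 on the log2 scale (SE). Cdc6, the loader of the MCM ring (ENSMUSG00000017499, chr11:98907801-98923940), had 44.2, 45.0 and 24.4 CPM at 10 µM, against 32.8, 37.7 and 36.4 CPM with DMSO, and crossed its DMSO value in the same manner (−0.90 ± 0.12).

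The term was negative for all 18 S-phase genes, with a median of −0.39, and 17 of them had an unadjusted p under 0.05, Tyms being the exception. Over the mitotic genes its median was −0.05, as it was over all genes tested, of which 1700 had an unadjusted p under 0.05. Taken at passages 12 and 14 alone, the 10 µM effect in the same fit was called in 21.7 percent of genes, 12.2 percent upward and 9.47 percent downward. There 17 mitotic genes fell, Tyms, Mcm2 and Cdt1 fell, and 4 S-phase genes rose: Ccne2 by 0.72, Cdc6 by 0.34, Cdc45, a helicase cofactor, by 0.23 and Pcna by 0.16 on the log2 scale.

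**Figure D2:**
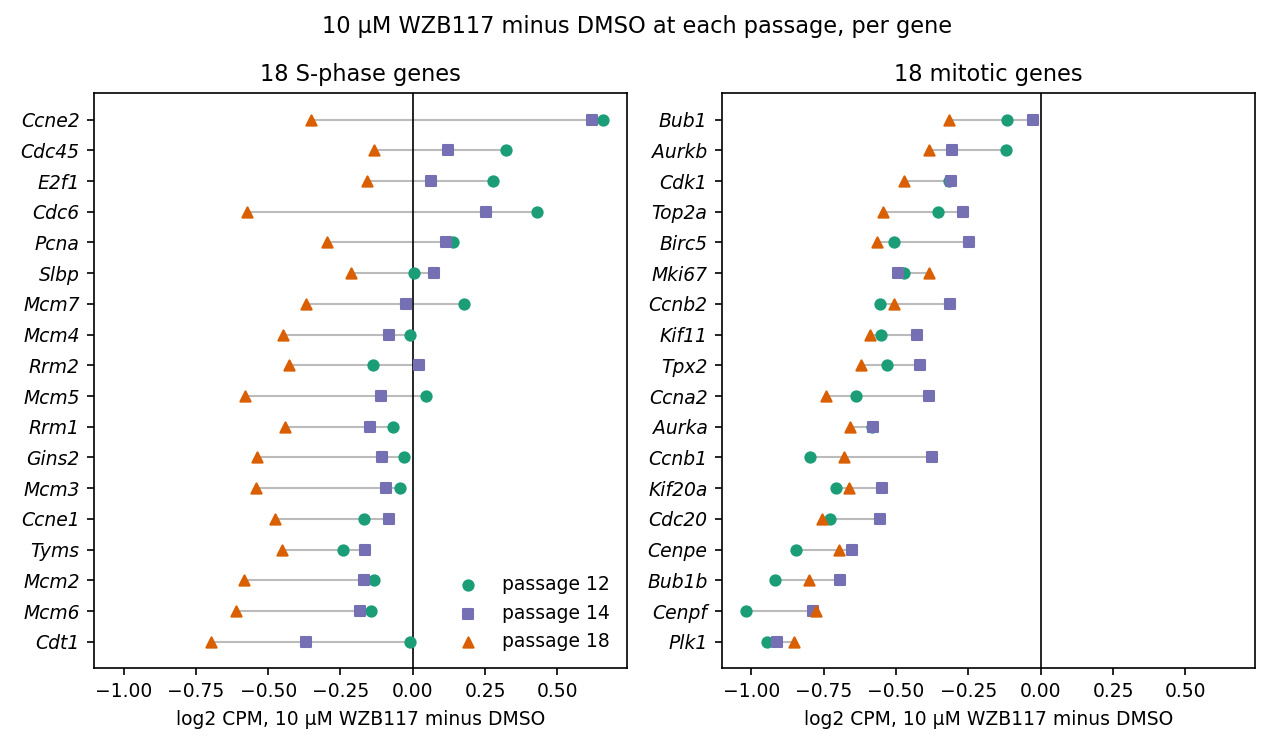
Difference in log2 CPM between 10 µM WZB117 and DMSO at passages 12, 14 and 18 for each of the 18 S-phase genes (left) and 18 mitotic genes (right), with 1 point for each passage. All mitotic points lie below 0, and among the S-phase genes Ccne2 and Cdc6 lie above 0 at passages 12 and 14 and below 0 at passage 18.

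Promoters are shown for 3 mitotic genes with the largest falls, for Cdc6, which lay above DMSO at passages 12 and 14 and below it in the 10 µM library of passage 18, and for Mcm6, an S-phase gene that fell at 10 µM, because E2F-type sites are known from S-phase genes and the cell cycle genes homology region (CHR) with CCAAT boxes from mitotic genes. The windows run from 250 bases before to 50 bases after the RefSeq gene start, 5′ to 3′ on the gene's strand, and were taken from RefSeq on GRCm38.p6. RefSeq starts can differ from the GENCODE M21 coordinates given for the genes. The Cdc6 window, like those of E2f1 and Mcm7, lies wholly inside its gene by the GENCODE coordinates. Capitals mark the motifs found on either strand. They are Plk1 at chr7:122159185-122159484 (plus strand), Cenpf at chr1:189688037-189688336 (minus), Bub1b at chr2:118597961-118598260 (plus), Cdc6 at chr11:98907901-98908200 (plus) and Mcm6 at chr1:128359656-128359955 (minus).
Plk1: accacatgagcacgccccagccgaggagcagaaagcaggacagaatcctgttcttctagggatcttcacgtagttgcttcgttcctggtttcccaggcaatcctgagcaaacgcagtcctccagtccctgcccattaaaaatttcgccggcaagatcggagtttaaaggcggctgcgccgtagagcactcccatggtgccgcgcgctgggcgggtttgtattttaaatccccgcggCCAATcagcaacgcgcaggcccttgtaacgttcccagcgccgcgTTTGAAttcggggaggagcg
Cenpf: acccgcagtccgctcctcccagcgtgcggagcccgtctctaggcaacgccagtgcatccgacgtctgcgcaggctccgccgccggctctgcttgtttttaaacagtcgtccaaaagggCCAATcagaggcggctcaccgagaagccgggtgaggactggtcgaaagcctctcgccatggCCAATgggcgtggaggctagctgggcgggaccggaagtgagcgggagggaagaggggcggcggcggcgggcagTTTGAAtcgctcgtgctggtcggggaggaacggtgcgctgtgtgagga
Bub1b: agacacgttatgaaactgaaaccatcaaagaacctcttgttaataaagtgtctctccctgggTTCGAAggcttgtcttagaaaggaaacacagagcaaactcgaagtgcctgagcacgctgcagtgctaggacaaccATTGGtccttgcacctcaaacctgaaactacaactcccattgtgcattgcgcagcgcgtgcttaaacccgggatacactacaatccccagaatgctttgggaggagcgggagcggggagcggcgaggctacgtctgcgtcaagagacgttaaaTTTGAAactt
Cdc6: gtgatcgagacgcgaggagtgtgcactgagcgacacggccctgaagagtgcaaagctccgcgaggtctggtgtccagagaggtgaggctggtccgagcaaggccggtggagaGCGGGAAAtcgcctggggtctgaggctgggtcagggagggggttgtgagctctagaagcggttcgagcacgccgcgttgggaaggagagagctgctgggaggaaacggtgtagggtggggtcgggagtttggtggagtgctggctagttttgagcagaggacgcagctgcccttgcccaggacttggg
Mcm6: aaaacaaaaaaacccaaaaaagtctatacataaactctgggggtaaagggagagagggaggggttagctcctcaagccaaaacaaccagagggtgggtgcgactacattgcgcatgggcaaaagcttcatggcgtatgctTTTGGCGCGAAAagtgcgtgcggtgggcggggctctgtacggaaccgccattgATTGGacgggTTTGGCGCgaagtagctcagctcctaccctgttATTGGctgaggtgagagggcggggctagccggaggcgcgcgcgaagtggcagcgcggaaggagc

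The motifs searched on both strands were TTTGGCGC, TTTCCCGC, TTTGGCGG, TTTCGCGC and TTTGCCGC for E2F-type sites, TTTGAA and TTCGAA for the CHR, and CCAAT. Matches to different E2F-type sites may overlap, as they do in the Mcm6 window. RefSeq windows were found for 29 of the 36 genes, 15 S-phase and 14 mitotic. A CHR stood in 11 of 14 mitotic windows (78.6 percent), in 3 of 15 S-phase windows (20.0 percent) and in 21.7 percent of the windows of 27025 genes. An E2F-type site stood in 1 of 14 mitotic windows (7.14 percent), in 6 of 15 S-phase windows (40.0 percent) and in 3.18 percent of all. CCAAT stood in 13 mitotic windows, in 10 S-phase windows and in 41.1 percent of all. Plk1, Cenpf and Bub1b each held a CHR and a CCAAT match, Cdc6 held an E2F-type match alone and Mcm6 held E2F-type and CCAAT matches. Mcm6 had the most E2F-type matches of any member window (3), while Cdt1, with a larger fall at 10 µM, had 1. The other S-phase genes that fell in the blocked fit, Mcm2, Tyms and Rrm1, held no E2F-type match. Mcm2 held a CHR and a CCAAT match. These are matches of letters and were not tested as sites.

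The lower dose, 0.5 µM, gave no called gene among the 36 or among all 15466 genes against DMSO in edgeR (0.0 percent). At an unadjusted p under 0.05 it gave 0 members and 55 genes in all, DESeq2 called 0 genes, and the fit with passage as block called 0 with 219 at an unadjusted p under 0.05. The median log2 fold change was −0.07 over the mitotic genes and −0.04 over the S-phase genes. The smallest p-values belonged to Bub1 at −0.15, Ccna2, cyclin A2, at −0.12 and Top2a, the topoisomerase that untangles chromosomes, at −0.09, and among S-phase genes to Cdc45 at −0.08, Ccne1, a cyclin E gene, at −0.09 and Ccne2 at −0.13, all with an adjusted p of 1.0. At 0.5 µM all 18 mitotic genes had a negative fold change, yet 7 of them lay below DMSO at all 3 passages, which held for 11.3 percent of genes. Plk1 at 0.5 µM had 62.0, 61.6 and 37.3 CPM at passages 12, 14 and 18, which overlaps its DMSO values.

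Between the doses, 10 µM gave 0 called members against 0.5 µM without a passage term, where 1.27 percent of genes were called, 0.86 percent upward and 0.414 percent downward. In that fit 10 mitotic genes had an unadjusted p under 0.05, as had 1696 of the 15466 genes, and DESeq2 called 5 mitotic genes as lower, among 187 of 13900 genes. With passage as the replicate block, 17 mitotic genes and the S-phase genes Cdt1, Mcm2 and Tyms fell at 10 µM, where 17.8 percent of genes were called, 9.28 percent upward and 8.55 percent downward. Bub1b had 69.0, 72.9 and 55.2 CPM at 10 µM, against 128, 120 and 87.5 CPM at 0.5 µM, with no overlap. Both comparisons use the same 10 µM libraries.

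Other genes of the cell cycle were grouped in 7 lists, read here in the blocked comparison of 10 µM with DMSO. In that fit 9.23 percent of all genes were called upward and 9.29 percent downward. Of 52 further mitosis genes, 48 fell and 0 rose, among them Aspm, a spindle pole protein, by 0.84, Kif20b, a kinesin, by 0.66 and Ect2, an activator of cytokinesis, by 0.68 on the log2 scale. Of 38 genes of origin licensing and the replisome, 10 fell and 1 rose, and the 3 of smallest p were Dbf4 and Cdc7, which form a kinase that fires origins, each at −0.42, and the primase Prim1 at −0.35. Of 11 genes of nucleotide supply and chromatin assembly, 6 fell and 1 rose, with the histone chaperone Asf1b at −0.45. Of 24 regulators of G1, 8 fell and 1 rose, with Cdk6 at −0.47, Ccnd1, cyclin D1, at −0.47 and Skp2 at −0.34. Of 14 genes of checkpoints and repair, 6 fell and 0 rose, led by Wee1, the kinase that restrains Cdk1, at −0.71, and of 13 genes of the anaphase-promoting complex, 1 fell (Cdc23 at −0.33) and 0 rose.

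Of 7 inhibitors of cyclin-dependent kinases, 3 rose and 1 fell. Cdkn1a, which encodes p21, had 44.8 ± 10.3 CPM at 10 µM and 11.8 ± 1.72 CPM with DMSO (SD, n = 3 each) and rose by 1.92 ± 0.20 (adjusted p = 0.00158, edgeR with the passage block). Cdkn1b, which encodes p27, rose by 0.54 ± 0.07 and Cdkn2c fell by 0.31 ± 0.07. Both Cdkn1a and Cdkn1b also passed without the passage term, with adjusted p-values of 0.00497 and 0.0226.

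Passages of the line were compared with treatment as a covariate, each passage holding 1 library of each treatment. The 3 libraries of a passage deviated together, so they are not independent cultures of that passage. The p-values measure how far the passage difference varied between treatments and may be too small. At passage 18 all 18 mitotic genes and 12 of 18 S-phase genes were lower than at passage 12 in edgeR, where 35.1 percent of 15466 genes were called in either direction, 15.9 percent upward and 19.2 percent downward, and none of the members rose. Against passage 14, all 18 mitotic genes and 13 S-phase genes fell, where 33.1 percent were called in either direction, 15.8 percent upward and 17.3 percent downward. The median log2 fold change at passage 18 over passage 12 was −0.41 for the mitotic genes and −0.31 for the S-phase genes. Both comparisons share the passage 18 libraries.

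Ccnb1, the cyclin that activates Cdk1 (ENSMUSG00000041431, chr13:100778650-100786570), had 72.3, 65.4 and 45.1 CPM at passage 18 with DMSO, 0.5 µM and 10 µM, against 116, 102 and 66.8 CPM at passage 12. It fell by 0.63 ± 0.07 (adjusted p = 8.11e-08, edgeR), and within each treatment passage 18 was the lower. Aurka, the Aurora kinase of the spindle poles, had 48.2, 44.4 and 30.5 CPM at passage 18 and 67.8, 62.0 and 45.2 CPM at passage 12 in the same order of treatments, and fell by 0.51. Aurkb fell by 0.48, Cenpf by 0.47, Bub1 by 0.46 and the spindle assembly factor Tpx2 by 0.44 on the log2 scale. Bub1, which did not pass at 10 µM, therefore did pass between passages.

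Rrm2, the small subunit of ribonucleotide reductase (ENSMUSG00000020649, chr12:24708241-24714146), showed the largest fall of the S-phase genes, with 150, 137 and 111 CPM at passage 18 under DMSO, 0.5 µM and 10 µM, against 229, 207 and 208 CPM at passage 12 and no overlap. It fell by 0.70 ± 0.07 (adjusted p = 4.78e-08, edgeR). Gins2, part of the replicative helicase, had 24.1, 21.4 and 16.6 CPM at passage 18 and 32.3, 33.2 and 31.6 CPM at passage 12, and fell by 0.66. The MCM subunits Mcm5, Mcm6 and Mcm7 fell by 0.50, 0.48 and 0.45 and Tyms by 0.46. Mcm4, Cdc6, Ccne1, Ccne2, E2f1 and Cdc45 did not pass, at −0.06, −0.17, −0.20, 0.16, −0.03 and −0.17.

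Over passage 14, the mitotic genes with the largest falls at passage 18 were Ccnb1 at −0.80, Kif20a at −0.71, Cenpf at −0.66, Birc5, which encodes survivin, at −0.66, Plk1 at −0.63 and Aurka at −0.61. Among S-phase genes they were Rrm2 at −0.69, Gins2 at −0.54, the transcription factor E2f1 at −0.45, Ccne1 at −0.39, Tyms at −0.37 and Mcm6 at −0.36. Within treatments, all 18 mitotic genes were lower at passage 18 than at passage 12 under DMSO, 0.5 µM and 10 µM, with medians of −0.31, −0.40 and −0.38. The S-phase medians in the same order were −0.19, −0.26 and −0.61, and 12, 14 and 18 of the 18 genes were lower. Without the 10 µM libraries, where 32.6 percent of genes were called (16.4 percent upward, 16.2 percent downward), 18 mitotic and 10 S-phase genes fell at passage 18 over passage 12, Cdt1 and Pcna were no longer called and Ccne2 rose by 0.53 (adjusted p = 8.71e-06, edgeR), and leaving out the 10 µM library of passage 18 alone gave the same changes of call. Over passage 14, 18 mitotic and 12 S-phase genes fell without the 10 µM libraries, where 31.0 percent of genes were called (16.5 percent upward, 14.5 percent downward). Without the treatment term 11 members fell in each comparison with passage 18, where 1741 of 15466 genes were called lower over passage 12 and 1484 over passage 14. Leaving out single libraries also ended the call over passage 12 for Mki67 (without either DMSO or either 0.5 µM library of the compared passages, at −0.14 to −0.17), for Cenpe (without DMSO at passage 12, at −0.16) and for Cdt1 (without either 0.5 µM or either 10 µM library, at −0.18 to −0.28). Over passage 14 it ended the call for Cdt1, Mcm5 and Mcm3, each without the 10 µM library of passage 18 or of passage 14, and for Pcna without the 10 µM library of passage 18. Cdt1 and Mcm5 were also not called over passage 14 without the 0.5 µM library of passage 14 or 18, nor Cdt1 without the DMSO library of passage 14.

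**Figure D3:**
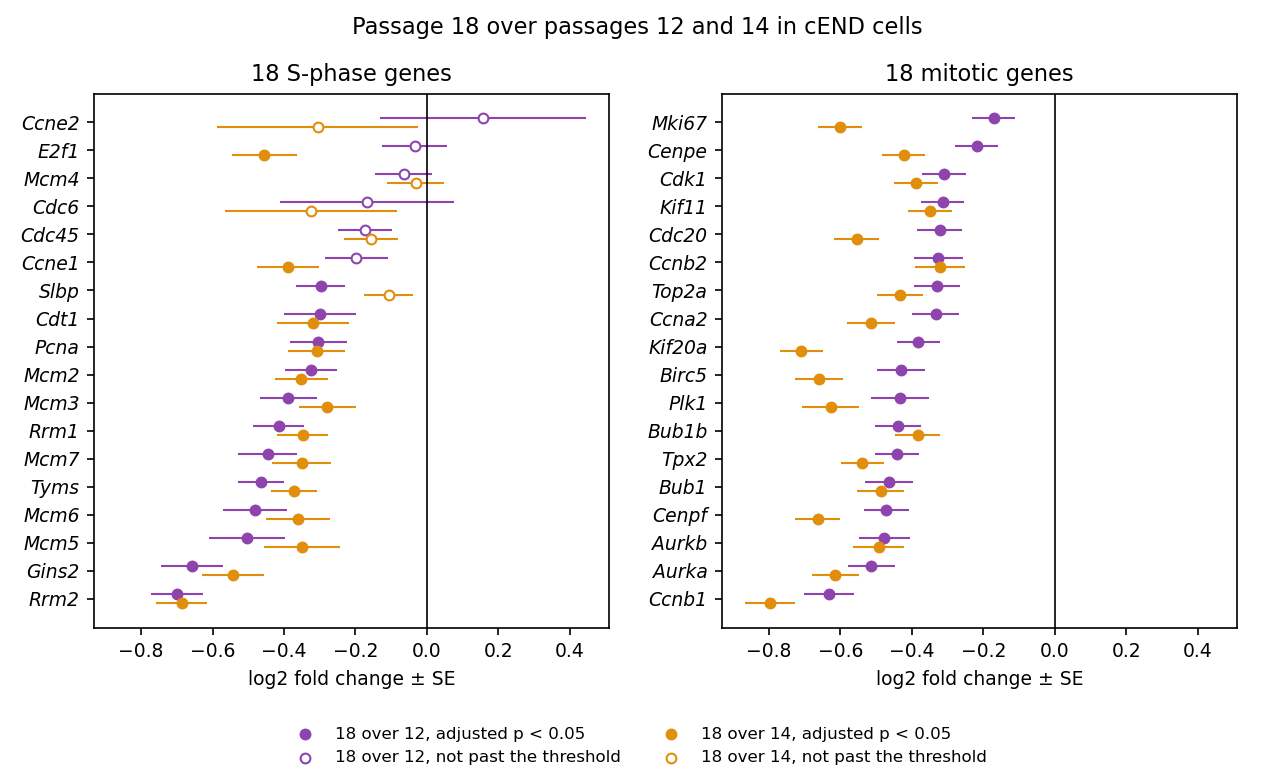
Log2 fold change with SE of passage 18 over passage 12 (purple) and over passage 14 (orange) for each of the 36 genes in cEND cells, filled where the adjusted p was under 0.05. All 18 mitotic genes lie below 0 in both comparisons, and Rrm2 and Gins2 are the lowest of the S-phase genes.

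Passage 14 differed less from passage 12. Of the members, 6 mitotic genes and E2f1 rose and Slbp, which binds histone messages, fell by 0.19, where 21.6 percent of genes were called, 10.1 percent upward and 11.5 percent downward. Mki67 had 526, 487 and 374 CPM at passage 14 with DMSO, 0.5 µM and 10 µM, against 388, 361 and 280 CPM at passage 12, and rose by 0.43 ± 0.06 (adjusted p = 4.09e-06, edgeR). Kif20a rose by 0.33, Cdc20 by 0.23, Birc5 by 0.23, Cenpe by 0.20 and Cenpf by 0.19, and E2f1 by 0.42. Leaving out single libraries left 3 to 8 members called higher, and without the 10 µM libraries, where 21.8 percent of genes were called (10.2 percent upward, 11.6 percent downward), Mki67 and Kif20a were the mitotic genes still called, joined by the S-phase genes E2f1, Ccne2 at 0.54 and Cdc6 at 0.23. Without the treatment term 1 member, E2f1, was called higher, as were 696 of 15466 genes. Leaving out any library of passage 12, or the DMSO or 0.5 µM library of passage 14, also ended the call for Slbp.

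The other lists were also read at passage 18 over passage 12, where 15.9 percent of all genes were called upward and 19.2 percent downward. Of the 52 further mitosis genes 45 fell and 1 rose, with Cdca3 at −0.68, the spindle protein Tacc3 at −0.66 and the chromokinesin Kif4 at −0.57. Of the 38 licensing and replisome genes 21 fell and 1 rose, of the 11 nucleotide and chromatin genes 7 fell and 0 rose, and of the 14 checkpoint and repair genes 12 fell and 0 rose, with Brca2, a DNA repair gene, at −0.57. Of the 24 G1 regulators 7 fell and 2 rose, among them Ccnd2, cyclin D2, at 0.65. Of the 13 genes of the anaphase-promoting complex 3 fell and 2 rose, near the shares of all genes. Of the 7 kinase inhibitors 1 fell, Cdkn2d at −0.56, and 0 rose. Of 13 endothelial markers tested, 11 rose at passage 18, and their part in the result was not tested.

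In the hypothalamus, the question for IP over INPUT was which RNAs were bound by tagged ribosomes. The mitotic genes were depleted, with 15 of 18 lower in IP and 0 higher, while the S-phase genes divided, with 9 higher and 7 lower. In this comparison 83.7 percent of 17592 genes were called in edgeR, 41.6 percent upward and 42.1 percent downward. The S-phase shares in both directions lay near those of all genes, so their division does not set these genes apart. The median log2 fold change was −1.29 for the mitotic genes, 0.11 for the S-phase genes and −0.02 over all genes tested.

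Mki67 (ENSMUSG00000031004, chr7:135689784-135716361) had 3.35, 1.39, 1.25 and 3.61 CPM in the HFD IP pools and 0.611, 0.817, 0.915 and 1.32 CPM in the CD IP pools. It had 8.86, 10.8, 10.7 and 10.6 CPM in HFD INPUT and 4.00, 5.10, 5.46 and 11.2 CPM in CD INPUT, so that all 8 IP libraries lay below all 8 INPUT libraries. It fell by 2.45 ± 0.28 (adjusted p = 1.55e-06, edgeR). Kif20a had 1.11, 1.83, 0.662 and 1.13 CPM in HFD IP and 0.519, 0.658, 0.169 and 0.661 CPM in CD IP, against 4.72, 3.29, 3.36 and 4.01 CPM in HFD INPUT and 3.64, 3.72, 3.45 and 4.03 CPM in CD INPUT. It fell by 2.28, again with no overlap. Bub1 fell by 2.07, Cenpf by 2.06, the cyclin B2 gene Ccnb2 by 2.06 and Ccna2 by 1.46 on the log2 scale. Aurka, Cdc20 and Tpx2 did not pass, at −0.11, −0.48 and −0.05.

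Of the S-phase genes, Rrm2 rose by 1.08 ± 0.17 in IP, Mcm3 by 0.94 ± 0.10, Cdc45 by 0.84, Mcm4 by 0.81, Pcna by 0.76 and Rrm1 by 0.63. Pcna (ENSMUSG00000027342, chr2:132249162-132253314) had 71.7, 72.6, 69.8 and 79.1 CPM in HFD IP and 72.5, 72.5, 78.0 and 68.1 CPM in CD IP. Its INPUT levels were 41.8, 46.8, 46.1 and 44.7 CPM with HFD and 40.4, 45.0, 40.3 and 39.0 CPM with CD, well apart from IP. Mcm3, Mcm4, Rrm1 and Cdc45 likewise had every IP library above every INPUT library. The share of all genes with IP and INPUT fully apart was not counted. For these genes, and for Mki67, Kif20a and Ccne2, the lack of overlap is therefore a description. Rrm2 had 3.52, 3.09, 3.10 and 5.69 CPM in HFD IP and 2.90, 3.04, 3.66 and 2.43 CPM in CD IP, against 1.56, 1.49, 2.05 and 2.63 CPM in HFD INPUT and 1.09, 1.23, 0.969 and 1.95 CPM in CD INPUT, where only HFD INPUT pool 4 reached into the IP range. Gins2, Tyms and Mcm2 were the other 3 that rose, by 0.55, 0.45 and 0.33.

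The S-phase genes that fell in IP included both cyclin E genes and both licensing factors. Cdc6 fell by 1.82 ± 0.33, Ccne2 by 1.16 ± 0.10, Ccne1 by 0.90 ± 0.14, Cdt1 by 0.54, E2f1 by 0.47, Mcm7 by 0.22 and Slbp by 0.16. Ccne2 had 2.30, 2.92, 3.36 and 2.91 CPM in HFD IP and 2.54, 2.18, 2.24 and 2.17 CPM in CD IP, against 5.44, 7.49, 4.97 and 5.22 CPM in HFD INPUT and 5.31, 5.71, 5.84 and 5.96 CPM in CD INPUT, with no overlap. Cdc6 rested on few reads, from 0.0852 to 0.384 CPM in HFD IP and 0.0916 to 0.189 CPM in CD IP, against 0.304 to 0.928 CPM in HFD INPUT and 0.352 to 0.703 CPM in CD INPUT. Mcm5 and Mcm6 did not pass, so the 6 subunits of the helicase comprised 3 that rose, 1 that fell and 2 that did not pass. DESeq2 did not call Mcm2 (adjusted p = 0.0583), and single libraries mattered for the smaller changes. Aurkb and Plk1 lost their call without CD INPUT pool 2, and Mcm7 without CD INPUT pool 2 or HFD INPUT pool 4. Cdk1 lost its call without HFD IP pool 2 or 3, CD IP pool 1 or 2, HFD INPUT pool 4 or CD INPUT pool 4. Cdt1 lost its call without HFD IP pool 1 or 3, CD IP pool 1 or 3, HFD INPUT pool 1 or 2 or CD INPUT pool 1. Mcm2 lost its call without HFD IP pool 2 or 4, CD IP pool 3, HFD INPUT pool 3 or CD INPUT pool 1, 2 or 3, with an adjusted p of at most 0.066. Mcm5 was called lower without HFD IP pool 4 (−0.53) or CD INPUT pool 1 (−0.47), and Cdc20 without CD IP pool 3 (−0.90).

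**Figure D4:**
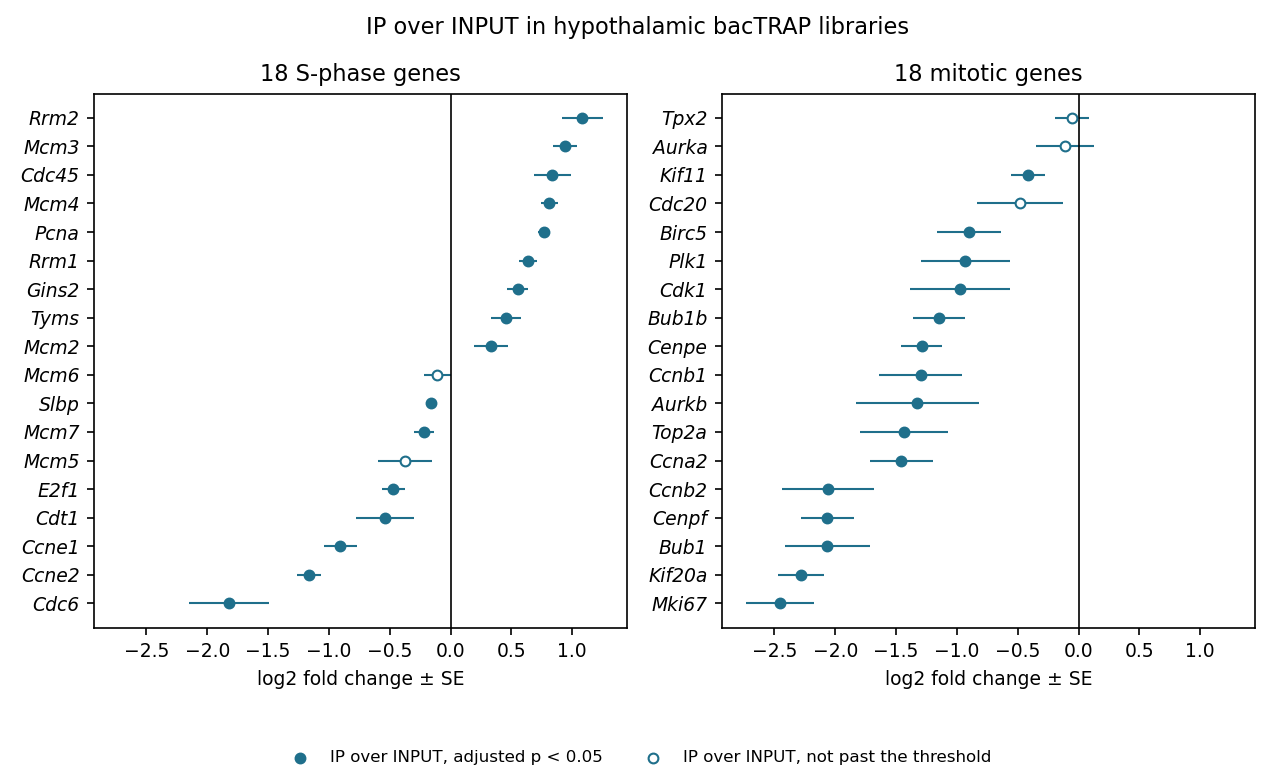
Log2 fold change with SE of IP over INPUT for each of the 36 genes over the 16 hypothalamic libraries, filled where the adjusted p was under 0.05. All 18 mitotic genes lie below 0, and the S-phase genes run from 1.08 for Rrm2 to −1.82 for Cdc6.

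Cell type markers moved in the same comparison. All 14 endothelial markers rose in IP with a median log2 fold change of 2.27, all 10 astrocyte markers rose with a median of 2.92, all 11 markers each of neurons and of microglia fell with medians of −1.27 and −3.83, and 8 of 9 oligodendrocyte markers fell with a median of −3.75. Of 8 markers of oligodendrocyte precursors, cells known to divide in the adult brain, 3 rose and 5 fell with a median of −1.84. Their part in the results for the 36 genes was not tested. The counts of the other lists are read against the 83.7 percent of all genes called in this comparison, 41.6 percent upward and 42.1 percent downward. In none of the 7 lists did the share called in either direction exceed 83.7 percent. By direction, most of the mitosis list and of the checkpoint and repair list fell. Most of the anaphase-promoting complex list and of the licensing and replisome list rose. Among them, 34 of 48 tested mitosis genes fell and 6 rose, with Anln, which builds the cleavage furrow and is also known from myelinating cells, at −2.94, Nusap1 at −0.73 and Pttg1, securin, at 1.06. Of 37 licensing and replisome genes tested 20 rose and 10 fell, with Rpa1 at 1.56 and Rfc5 at −1.87. Of 14 checkpoint and repair genes 11 fell and 0 rose, of 13 genes of the anaphase-promoting complex 10 rose and 0 fell, and of 24 G1 regulators 12 rose and 6 fell, among them E2f5 at 2.56 and Rb1 at 1.63. Of 11 nucleotide and chromatin genes 4 rose and 5 fell, and of 6 kinase inhibitors 3 rose and 1 fell, with Cdkn1a at 2.26.

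Diet was compared within IP and within INPUT. In IP, 29 members had enough reads to be tested, 17 S-phase and 12 mitotic, and none passed in edgeR, where 0.0883 percent of 15858 genes were called, 0.0378 percent upward and 0.0504 percent downward. The members not tested were Cdc6, Cdk1, Ccnb1, Ccnb2, Plk1, Aurkb and Bub1. At an unadjusted p under 0.05 there were 7 of 12 mitotic and 2 of 17 S-phase genes, against 1831 of all 15858 genes, so that the S-phase share was near that of all genes. DESeq2 called 183 of 11104 genes but 0 members, giving no mitotic member an adjusted p. The smallest p-values belonged to Mki67 at 1.42 ± 0.37 (log2 fold change HFD over CD ± SE, adjusted p = 0.169), Cenpf at 1.32 ± 0.39 (adjusted p = 0.188) and Kif20a at 1.21 ± 0.37 (adjusted p = 0.206), and among S-phase genes to Mcm5 at 0.74, Gins2 at 0.25 and Ccne2 at 0.35.

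Mki67, with the IP values given above, was higher in all HFD pools than in CD pools 1, 2 and 3, and HFD pool 3 lay below CD pool 4. Cenpf had 1.11, 0.796, 0.636 and 2.17 CPM in HFD IP and 0.397, 0.295, 0.610 and 0.661 CPM in CD IP, which overlap at HFD pool 3. Kif20a and Cenpe were the members whose HFD IP pools all lay above the CD IP pools, although Kif20a had 0.662 CPM in its lowest HFD pool, against 0.661 CPM in its highest CD pool. All HFD pools lay above all CD pools in 2.76 percent of genes. The mean log2 CPM over the mitotic genes was −0.23, −0.70, −0.97 and 0.44 in HFD IP pools 1 to 4 and −1.34, −1.41, −0.83 and −0.85 in CD IP pools 1 to 4, so pools 1 and 4 of the HFD stood highest. Without a filter on low counts 5 mitotic genes rose with HFD (Mki67, Ccna2, Cenpf, Kif20a and Cdk1), where 1.5 percent of 26549 genes were called, 0.727 percent upward and 0.772 percent downward. Leaving out HFD pools 1 and 4, a choice made after their values were seen, gave 0 called members with Mki67 at 0.54, Cenpf at 0.57 and Kif20a at 1.27.

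In INPUT, 0 members passed for HFD against CD, where 0.0355 percent of 16879 genes were called in edgeR, 0.0237 percent upward and 0.0118 percent downward, and DESeq2 called 50 genes and 0 members. All 18 mitotic genes had a positive log2 fold change, with a median of 0.50, against 0.0017 over all genes tested. At an unadjusted p under 0.05 there were 8 mitotic and 2 S-phase genes, against 1258 of all 16879 genes. Of 13 endothelial markers tested in the same comparison, 10 had a positive log2 fold change, 6 had an unadjusted p under 0.05 and 0 passed, with a median of 0.42, and their part in the values of the mitotic genes was not tested. Bub1 was at 1.19 ± 0.36 (adjusted p = 0.464), Plk1 at 1.10 ± 0.36 (adjusted p = 0.508) and Cenpf at 0.49 ± 0.17 (adjusted p = 0.534), and among S-phase genes Rrm2 was at 0.56, Pcna at 0.12 and Gins2 at 0.19. Bub1 had 0.495, 0.840, 0.764 and 0.828 CPM in HFD INPUT and 0.255, 0.293, 0.161 and 0.547 CPM in CD INPUT, which overlap at CD pool 4. No member had all HFD INPUT pools above all CD INPUT pools, which held for 2.28 percent of genes.

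The calls of Mki67 and Top2a in INPUT depended on CD INPUT pool 4. The mean log2 CPM over the mitotic genes was 0.70, 0.84, 0.85 and 0.88 in HFD INPUT pools 1 to 4 and 0.03, 0.30, −0.15 and 0.60 in CD INPUT pools 1 to 4. Without CD INPUT pool 4, Mki67 rose with HFD by 1.07 (adjusted p = 0.00134) and Top2a by 0.95 (adjusted p = 0.0301, edgeR), where 0.0702 percent of 17102 genes were called, 0.0585 percent upward and 0.0117 percent downward. With all pools kept and no filter on low counts, Aurkb rose by 1.29 (adjusted p = 0.036, edgeR). In that fit 65 of 28869 genes were called higher and 51 lower. With the replicate number as a block, 0 members and 43 genes were called, and 12 mitotic genes had an unadjusted p under 0.05, as had 1716 of the 16879 genes.

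**Figure D5:**
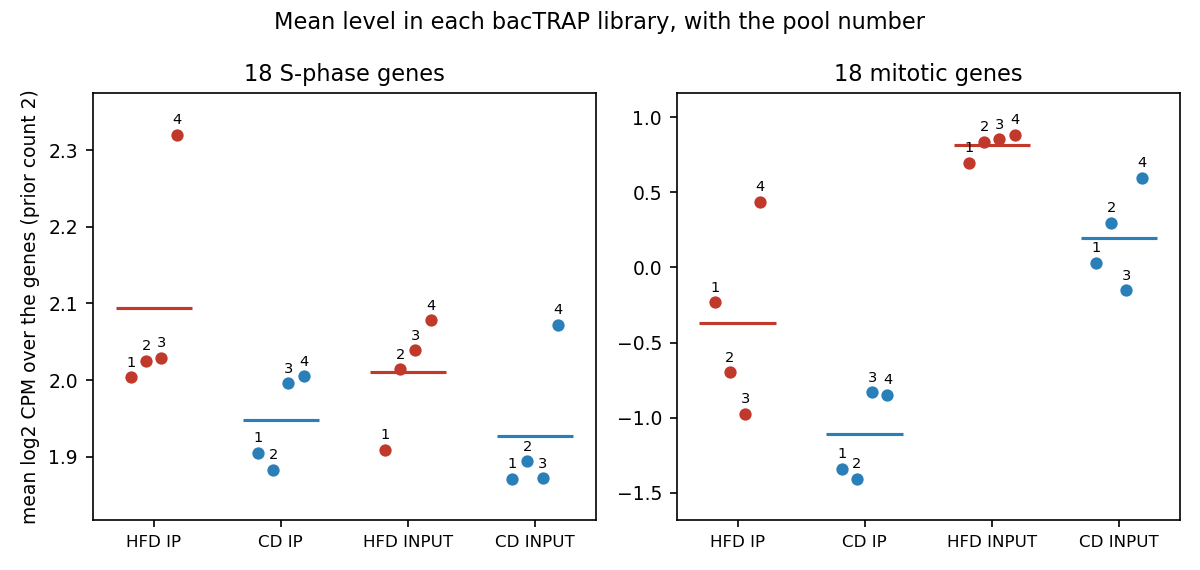
Mean log2 CPM (prior count 2) of the 18 S-phase genes (left) and the 18 mitotic genes (right) in each hypothalamic library, numbered by pool, with a line at the mean of each group. HFD IP pools 1 and 4 and CD INPUT pool 4 stand highest within their groups for the mitotic genes.

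The diet effects in IP and in INPUT were compared in 1 model over the 16 libraries. None of the 36 members and none of 17592 genes passed the difference in edgeR, 755 genes and 1 member had an unadjusted p under 0.05, and DESeq2 called 2 genes and 0 members. The member was Kif20a, whose HFD effect was higher in IP than in INPUT by 1.13 ± 0.38 (adjusted p = 1.0, edgeR). Markers of tanycytes and ependyma, of which some divide in adults, summed to 126 to 211 CPM in HFD IP with pool 4 highest, 88.1 to 107 CPM in CD IP, 42.1 to 49.2 CPM in HFD INPUT and 34.4 to 37.6 CPM in CD INPUT, with Tmem212 at 0 in all HFD IP libraries. Of the 6 tested for diet in IP 0 passed, of the 8 tested in INPUT 1 passed, and their part in the values of the mitotic genes was not tested.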

How the data were processed

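The files hold estimated counts per Ensembl gene, not scaled to a common total, as deposited by the authors. Non-whole values made up 17.3 percent of the hypothalamic and 19.8 percent of the cEND values. Per the submitters' processing notes the build was GRCm38, and the aligner, counting program and annotation release are not given in the sources used here, so reads shared between near-identical genes may have been divided. The counts were rounded and tested with edgeR 4.0.16 (R 4.3.3) by the quasi-likelihood test with TMM scaling, filterByExpr and Benjamini-Hochberg adjustment over all genes tested, with an adjusted p under 0.05 as threshold. DESeq2 1.42.0 was the alternative tool. Most of the main edgeR fits were tested on simulated counts, in which libraries varied independently. There the fit of 10 µM against DMSO without a passage term recovered 50 percent of changes of 1 on the log2 scale. It made 7 false calls. Of changes of 0.5 it recovered 4 percent, so it can miss changes of this size. The fit of passage 18 over 12 recovered 93 and 68 percent, with 31 false calls. Levels are CPM with TMM scaling over a table. Symbols, coordinates and exon lengths came from GENCODE M21.

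WZB117 doses were compared without a passage term and, as an alternative, with passage as a replicate block, because all 9 pairs of same-passage libraries had correlated deviations from the group means (0.662 to 0.865). By the same measure, same-numbered INPUT pools of both diets had correlations of 0.119 to 0.355, against −0.276 to 0.205 between differently numbered ones. For the IP pools these were 0.015 to 0.231, against −0.292 to 0.147. The ranges overlapped in both fractions, so pools of the same number were not taken as pairs between the diets. Passages were compared with treatment as a covariate, and diets within IP and within INPUT. IP was set against INPUT over 16 libraries with a mean for each group of diet and fraction, the difference averaged over the diets. No pair of libraries of a group agreed within sampling noise (chi-square per degree of freedom at least 8.46).

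The members and lists were chosen with earlier results of these data known. In each comparison up to 6 called members of each kind are named by size of change, or the 3 of smallest p where none was called, and up to 3 genes of each other list by smallest p. The term for passage 18, the blocked fits without a passage and the fits without the 10 µM libraries or without HFD IP pools 1 and 4 were added after the data had been seen.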

Additional observations from a re-analysis of the deposited data

Results flagged for a closer look

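In groups of 4 libraries, 12 of 152 tests found a library whose gap to the nearest of the others was too large a share of the group's range by Dixon's criterion, and chance flags about 1 in 20 groups. HFD IP pool 4 was far above the other HFD IP pools in Rrm2 with 5.69 CPM (3.09 to 3.52 CPM in the others), Ccnb1 with 1.29 CPM (0.204 to 0.341 CPM), Aurkb with 0.881 CPM (0.170 to 0.232 CPM), Cenpe with 1.63 CPM (1.02 to 1.07 CPM) and the mean log2 CPM of the S-phase genes with 2.32 (2.00 to 2.03). CD INPUT pool 4 was far above the other CD INPUT pools in Top2a with 5.80 CPM (2.29 to 2.78 CPM), Cdk1 with 0.677 CPM (0.291 to 0.322 CPM), Cenpf with 3.72 CPM (2.26 to 2.40 CPM) and the mean log2 CPM of the S-phase genes with 2.07 (1.87 to 1.89). Low values were those of E2f1 in CD IP pool 3 with 3.93 CPM (4.63 to 4.76 CPM), Mki67 in HFD INPUT pool 1 with 8.86 CPM (10.6 to 10.8 CPM) and Cdc20 in HFD INPUT pool 2 with 0.194 CPM (0.491 to 0.533 CPM).

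In cEND cells the difference between 10 µM WZB117 and the controls of the same passage at passage 18, minus that at the earlier passages, was −0.90 for Cdc6 and −1.03 for Ccne2 (log2 scale). Passage 18 had 1 library at 10 µM and the comparison was chosen after its values had been seen, so that passage and that library cannot be told apart.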

How the results depend on the processing

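For 10 µM against DMSO, 0 members were called lower without a passage term. DESeq2 called 6 (189 of 12893 genes lower), the fit without a filter on low counts 2 (63 of 26027) and passage as a replicate block 22 (1437 of 15466). The replicate block gave 23 with DESeq2 (1260 of 12403 genes lower), 22 without passage 12 (780 of 15587) and 22 without passage 14 (1092 of 15720). Without passage 18 it gave 16 (871 of 15450), and 2 members were called higher (1127 of 15450). For 10 against 0.5 µM, the 0 became 5 with DESeq2 (187 of 13900 genes lower), 2 without a filter (59 of 26027) and 20 with the replicate block (1323 of 15466). It was 0 to 1 when single libraries were left out. Without the treatment term, 11 members were called lower at passage 18 over passage 12 (30 with it) and 11 over passage 14 (31 with it). Passage 18 over 12 had 1 member called higher without the 10 µM libraries, and 0 to 1 when single libraries were left out. Passage 14 over 12 had 7 called higher, against 1 without the treatment term and 3 to 8 when single libraries were left out, and 1 called lower, against 0 with DESeq2, 0 without the treatment term and 0 to 1 without single libraries. For HFD against CD, 5 members were called higher in IP without a filter, in INPUT 1 without a filter and 0 to 2 without single libraries. At 0.5 µM, values near 0 changed sign without single libraries, with ranges of −0.247 to 0.013 for Ccna2, −0.183 to 0.021 for Top2a and −0.257 to 0.065 for Ccne2.

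Over all genes, 10 µM against DMSO gave 197 calls, against 504 with DESeq2 and 2864 with the replicate block, and 10 against 0.5 µM gave 197, against 483, 2759 and, with those 6 libraries alone, 79. Without the treatment term, passage 14 over 12 gave 1623 (3336 with it), passage 18 over 12 gave 3269 (5422) and passage 18 over 14 gave 2924 (5121). For HFD against CD, IP gave 14, against 183 with DESeq2, 398 without a filter, 52 with the pool number as replicate block and 121 in a fit of all 16 libraries, and INPUT gave 6, against 50, 116, 43 and 2. INPUT and IP share pool numbers, but whether a shared number marks the same mice was not given in the sources used here. Same-numbered libraries had correlations of 0.06 to 0.39, against −0.286 to 0.176 between the others of the same diet. The fit of IP against INPUT treated the 16 libraries as unpaired. With the pool as replicate block 1 member call ended, Aurkb in IP against INPUT (adjusted p = 0.0679, edgeR). Mitotic genes in IP had as few as 1 count in a library, and 7 members were not tested there for diet. The causes of these changes were not tested.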
